A study of Mus musculus with 172 samples.

Results

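A set of 10 genes of the Nodal pathway were followed in single inner cell mass (ICM) cells of mouse blastocysts with and without OCT4, the transcription factor encoded by Pou5f1. They were taken by symbol from the 49671 genes in the count tables. They comprise the ligands Nodal and Gdf3, the feedback inhibitors Lefty1 and Lefty2, the co-receptor Tdgf1 (Cripto), the receptors Acvr1b and Acvr2b, the signal transducers Smad2 and Smad3, and the DNA-binding partner Foxh1. Cells were collected at embryonic day (E) 3.5, the mid blastocyst, and at E4.5, the late blastocyst, when the ICM has separated into epiblast (EPI) and primitive endoderm (PrE). Mutant (MUT) embryos lacked functional Pou5f1, heterozygote (HET) embryos kept 1 intact copy and wild type (WT) embryos both. The mice were of mixed genetic background, and the sequenced embryos of both stages came from crosses of heterozygotes. At E3.5 there were 58 control cells from 7 embryos (5 WT and 2 HET) and 29 MUT cells from 4 embryos. At E4.5 there were 37 EPI and 29 PrE cells from the same 6 WT or HET embryos and 19 MUT cells from only 2 embryos. Trophectoderm (TE) was removed by immunosurgery and used for genotyping.

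Nodal is a secreted ligand of the TGF-beta superfamily, and Gdf3 is a related ligand. They signal through a type II receptor (Acvr2b or Acvr2a) and a type I receptor (Acvr1b, also called ALK4), with the membrane-anchored protein Tdgf1 as a co-receptor. The receptor phosphorylates SMAD2 and SMAD3, which enter the nucleus with SMAD4 and act on DNA with FOXH1. Nodal, Lefty1 and Lefty2 are themselves targets of the pathway, and the Lefty proteins bind ligand and co-receptor and so restrain it. In the mouse the pathway is known for maintaining the epiblast and patterning it after implantation.

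Counts of an embryo's cells were summed and expressed as CPM, the count of a gene scaled to a common library total, with the embryo as replicate. The depth per cell was similar between genotypes, with medians of 1335828 counts in E3.5 WT/HET cells and 1318327 in E3.5 MUT cells, and of 1681933, 1772045 and 1609943 in EPI, PrE and E4.5 MUT cells. Single cells ranged from 363819 to 4644070 counts. By the study's table of cells, all E4.5 libraries were on one plate and all E3.5 libraries on another, so stage and plate cannot be told apart. Pou5f1 itself was at 199 to 431 CPM in E3.5 WT/HET embryos and at 2.76 to 5.99 CPM in E3.5 MUT embryos. At E4.5 it was at 69.4 to 177 CPM in WT/HET ICMs and had 0 counts in both MUT embryos, at least 1237-fold lower when the floor is set at 3 counts over the group. All MUT embryos thus lay apart from the controls, whereas these ranges do not tell WT from HET embryos. Markers of 3 lineages were read beside the members. The 10 TE markers together gave 8297 and 9602 CPM in the E4.5 MUT embryos against 333 to 1164 CPM in WT/HET ICMs, and 1210 to 2023 CPM in E3.5 MUT against 246 to 906 CPM in E3.5 WT/HET. Also at E3.5, the 9 PrE markers gave 388 to 613 CPM in MUT against 94.2 to 298 CPM in WT/HET, and the 8 EPI markers 1693 to 3164 CPM against 3231 to 3720 CPM. Single PrE markers did not all follow their sum. None of the PrE markers named next for E3.5 had a higher mean in MUT, so the rise of the sum lay in the remaining ones. Sox17 had 0 counts in MUT against 0 to 8.04 CPM, as had Sox7 against 0 to 0.795 CPM, and Foxa2 had 0 counts in both. The means of Gata6 and Pdgfra were 91.6 and 4.39 CPM in MUT against 114 and 20.6 CPM. At E3.5, 2 of 6 tested PrE and 4 of 8 tested TE markers were called higher and none lower. Of the 8 EPI markers 3 were called lower and none higher, beside 2.98% of all tested genes called lower and 3.2% higher. At E4.5 the PrE markers gave 510 to 766 CPM in E4.5 MUT against 550 to 3538 CPM in WT/HET ICMs, and 4 of 9 were called lower and none higher. The PrE factors Sox7 and Foxa2 had 0 counts in MUT. Gata6 was at 49.6 to 76.5 CPM in MUT against 28.1 to 150 CPM, and Pdgfra at 20.3 to 70.2 CPM against 22.9 to 146 CPM. Of the 10 TE markers 8 were called higher and none lower there, beside 3.1% of all tested genes called higher and 4.27% lower. The EPI markers gave 8011 to 10723 CPM in E4.5 MUT against 3681 to 6150 CPM in the ICMs, of which Dppa5a alone gave 7463 and 9794 CPM in MUT. The median log2 difference of the 8 EPI markers there was nevertheless -0.97, with 2 called higher and 1 lower. Utf1 had a mean of 11.6 CPM in MUT against 358 CPM in ICMs, whereas Nanog had a mean of 506 CPM against 159 CPM. These lineage markers moved with genotype, and their part in the results that follow was not tested.

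**Figure D1:**
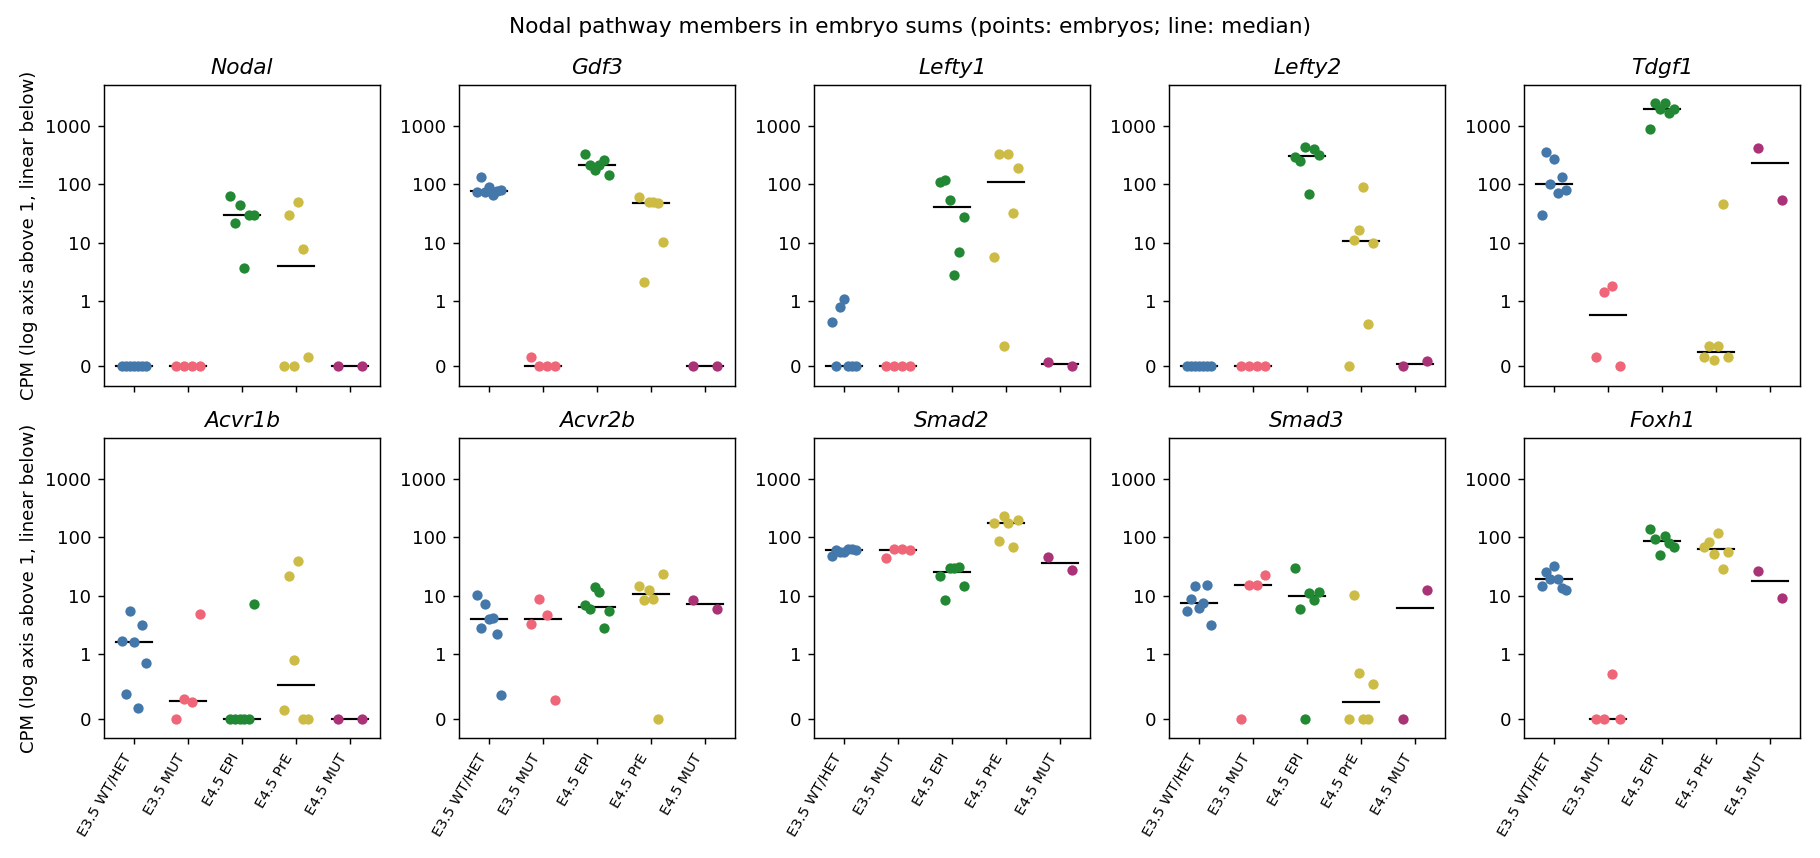
CPM of each member in every embryo sum (log axis above 1 CPM, linear below; 1 point per embryo, lines at medians; groups E3.5 WT/HET, E3.5 MUT, E4.5 EPI, E4.5 PrE and E4.5 MUT). Gdf3 lies at 65.4 CPM or more in every E3.5 WT/HET embryo and at 0.146 CPM or less in every MUT embryo of that stage, whereas the points of Smad2, Smad3, Acvr1b and Acvr2b overlap between the E3.5 genotypes.

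Nodal lies on chromosome 10 (GRCm38, chr10:61417972-61425338, plus strand) and Tdgf1 on chromosome 9 (chr9:110939603-110946158, minus strand). The 250 bases upstream of their RefSeq start sites are shown because the ligand had 0 counts in the E4.5 MUT embryos while transcripts of the co-receptor were detected in them, and both windows were searched for motifs of OCT4 and of the pathway's own factors. The windows are chr10:61417722-61417971 for Nodal and chr9:110946159-110946408 for Tdgf1, 5' to 3' along each gene, from the RefSeq annotation of GRCm38.p6.

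Nodal: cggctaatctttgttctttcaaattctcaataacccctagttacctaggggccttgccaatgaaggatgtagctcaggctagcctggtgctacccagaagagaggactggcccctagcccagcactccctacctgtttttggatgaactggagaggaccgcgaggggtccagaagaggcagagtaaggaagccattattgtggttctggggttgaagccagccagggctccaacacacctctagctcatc

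Tdgf1: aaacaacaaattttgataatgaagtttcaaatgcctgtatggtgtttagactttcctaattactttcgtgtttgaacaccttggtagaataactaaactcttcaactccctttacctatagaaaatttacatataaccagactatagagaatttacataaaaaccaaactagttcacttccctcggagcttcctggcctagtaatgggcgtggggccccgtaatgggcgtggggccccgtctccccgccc

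Neither window held a FOXH1 motif (AATCCACA or AATACACA), a SMAD motif (GTCTAGAC or CAGACA) or the POU octamer ATGCAAAT on either strand, and nothing in the sequences is therefore set in capitals. Of 32851 RefSeq windows of the same length, 0.718%, 0.895%, 0.167%, 17.1% and 1.60% held these motifs, in that order. CAGACA does not occur within GTCTAGAC on either strand, and the motifs were counted separately. The windows of Acvr1b, Acvr2b and Smad3 held none of the motifs either, and 5 of the 10 members matched the promoter table. Absence of these letters from 250 bases says nothing of sites elsewhere, such as the intronic and distal enhancers through which FOXH1 is known to act on Nodal and Lefty genes.

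Lefty1 and Lefty2 are neighbouring, closely related genes on chromosome 1 (chr1:180935022-180938400 and chr1:180893108-180899103, both on the plus strand). Of all 125-base stretches in their transcripts, the length of a read, 2.51% of Lefty1 (41 of 1632) and 1.65% of Lefty2 (41 of 2485) also occur in the other gene. Tdgf1 shares 1.31% (36 of 2740) with the pseudogene Tdgf1-ps1, and the other 7 members share none with any gene. The values of the 2 Lefty genes thus rest almost wholly on sequence of their own, although pairs that fit both were left uncounted by the authors. Acvr2b (chr9:119402118-119434995, plus strand) is overlapped by the antisense gene Gm47320, and Smart-seq2 libraries carry no strand, so its reads cannot be told apart from antisense reads in the shared part. The remaining members are Gdf3 (chr6:122605403-122610087, minus), Acvr1b (chr15:101174067-101213684, plus), Smad2 (chr18:76241580-76310963, plus), Smad3 (chr9:63646767-63757994, minus) and Foxh1 (chr15:76668225-76669948, minus).

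At E3.5 the control ICM held 1 ligand among the members, the co-receptor and the DNA-binding partner, and all 3 were nearly absent without OCT4. Gdf3, a ligand, was at 73.7, 131, 72.3, 90.1 and 80.0 CPM in the WT embryos 9, 11, 13, 14 and 18 and at 65.4 and 76.0 CPM in the HET embryos 15 and 16. In the 4 MUT embryos a single count was found, in embryo 10 (0.146 CPM), and the other 3 had 0. The groups lie far apart. The ratio of the pooled groups was 3539-fold, with a 95% interval from counting error of 635 to 139809, and the adjusted p of edgeR's quasi-likelihood test was 7.19e-07. Tdgf1, the co-receptor, ranged more widely among the controls, at 29.8, 353, 102, 271 and 78.7 CPM in WT embryos 9, 11, 13, 14 and 18 and at 69.7 and 131 CPM in HET embryos 15 and 16. It was at 0.146, 1.44, 1.81 and 0 CPM in MUT embryos 10, 12, 17 and 19. Here too no MUT embryo came near the lowest control. Tdgf1 fell by 7.24 ± 0.97 (SE) on the log2 scale, with a 95% interval of -9.33 to -5.15 (adjusted p = 0.00192, edgeR). Foxh1, the forkhead factor that brings SMAD complexes to DNA, was at 14.5, 25.2, 19.4, 32.5 and 12.3 CPM in WT embryos 9, 11, 13, 14 and 18 and at 18.9 and 13.3 CPM in HET embryos 15 and 16. In MUT it was detected in embryo 17 only, at 0.690 CPM. It fell by 6.56 ± 0.98 on the log2 scale, with an interval of -8.68 to -4.43 (adjusted p = 0.00329, edgeR). With 1 embryo left out the Foxh1 difference ran from -10.77 to -6.09, and under the 6 other processing choices from -6.67 to -3.56. These 3 of the 7 members that could be tested were called lower and none was called higher, beside 2.98% of all 12075 tested genes called lower and 3.2% called higher. All 3 were also called with any 1 of the 11 embryos left out and under each of 6 other processing choices.

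The receptors and SMADs at E3.5 gave no call. Smad2, the receptor-regulated SMAD with the higher level, was at 48.0, 59.3, 56.5, 56.4, 60.5, 62.6 and 61.8 CPM in embryos 9, 11, 13, 14, 18, 15 and 16, and at 44.1, 63.6, 62.2 and 59.6 CPM in MUT embryos 10, 12, 17 and 19. The ranges overlap almost fully, and the difference was 0.00 on the log2 scale with an interval of -0.35 to 0.35 (adjusted p = 0.998). Smad2 is thus the member for which the data bound a change most tightly. For Smad3 the difference was 0.63 with an interval of -1.17 to 2.43 (adjusted p = 0.732), from 3.20 to 15.3 CPM in WT/HET and 0 to 22.9 CPM in MUT. For the type II receptor Acvr2b it was -0.05 with an interval of -1.92 to 1.81 (adjusted p = 0.985), from 0.369 to 10.3 CPM in WT/HET and 0.286 to 8.65 CPM in MUT. For the type I receptor Acvr1b it was -0.48 with an interval of -3.14 to 2.18 (adjusted p = 0.876), at 0.172 to 5.45 CPM in WT/HET and 0 to 4.86 CPM in MUT. These are low counts, and the intervals of both receptors leave room for a change of several fold in either direction, as does that of Smad3 for a rise. All adjusted p-values are from edgeR.

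Nodal and Lefty2 had 0 counts in all 87 cells of E3.5, and Lefty1 had 32 counts in 3 WT cells, 1 each in embryos 9, 13 and 14 (0.673, 0.909 and 1.07 CPM). These 3 genes were too low to be tested at this stage. With a floor of 3 cells, 0 of 58 cells allows a share of cells with a count of up to 5.17%, and 0 of 29 MUT cells of up to 10.3%, covering counting error only and not transcripts missed in expressing cells. The E3.5 control ICM therefore had transcripts of the co-receptor and of Gdf3 with no detected transcript of Nodal.

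At E4.5 the controls carried Nodal and both Lefty genes, and the MUT embryos did not. In whole WT/HET ICMs, which do not depend on the assignment of cells to EPI or PrE, Nodal was at 23.6, 26.6, 23.9 and 18.2 CPM in HET embryos 1, 2, 4 and 7 and at 21.4 and 26.5 CPM in WT embryos 5 and 6. MUT embryos 3 and 8 had 0 counts, by the floor of 3 counts at least 236-fold lower (adjusted p = 0.00127, edgeR). This bound and those below cover counting error of reads only, not the spread between cells or embryos. Of all members Nodal varied least, relative to its mean, between control ICMs at this stage, with a mean of 23.4 ± 3.19 CPM (SD, n = 6). Gdf3 was at 161, 79.6, 117 and 90.5 CPM in HET embryos 1, 2, 4 and 7 and at 147 and 224 CPM in WT embryos 5 and 6, with 0 counts in both MUT embryos, at least 1341-fold lower (adjusted p = 0.000533, edgeR). Lefty2, a feedback inhibitor, was at 110, 97.3, 242 and 199 CPM in the HET and 74.8 and 335 CPM in the WT embryos in the same order, against 1 count in MUT embryo 8 and 0 in embryo 3. The ratio of the pooled groups was 5229-fold with a counting interval of 938 to 206556 (adjusted p = 0.00127, edgeR). Lefty1 was the most variable of the called genes, at 45.2, 254, 29.5 and 90.0 CPM in HET embryos 1, 2, 4 and 7 and 125 and 11.9 CPM in WT embryos 5 and 6, against 1 count in MUT embryo 3. Its ratio was 3040-fold with a counting interval of 545 to 120075 (adjusted p = 0.00908, edgeR). For all 4 genes the lowest control lies well above the higher MUT embryo. The share of all genes with such separation was not counted, here or in the comparisons below.

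Foxh1 and Tdgf1 stood apart from these 4, because their transcripts were present in both MUT embryos at E4.5. Foxh1 was at 94.3, 85.2, 50.0 and 63.5 CPM in HET embryos 1, 2, 4 and 7 and 108 and 71.5 CPM in WT embryos 5 and 6, against 26.2 and 8.92 CPM in MUT embryos 3 and 8. The groups do not overlap, and Foxh1 fell by 2.14 ± 0.50 on the log2 scale, with an interval of -3.25 to -1.02 (adjusted p = 0.0315, edgeR). Tdgf1 was at 333, 888, 1067 and 1199 CPM in the HET and 1530 and 1370 CPM in the WT embryos, against 411 and 53.6 CPM in MUT embryos 3 and 8. MUT embryo 3 lies above the lowest control, and the difference of -2.17 ± 0.77 with an interval of -3.89 to -0.45 did not pass the adjusted test (adjusted p = 0.13, edgeR). With 1 embryo left out it ran from -4.28 to -1.36. In all, 5 of the 10 members (Nodal, Gdf3, Lefty1, Lefty2 and Foxh1) were called lower and none higher, beside 4.27% of 14105 tested genes called lower and 3.1% called higher. With 2 MUT embryos single calls rested on few samples. Lefty1 was not called without MUT embryo 3 (adjusted p = 0.0686) or 8 (0.058), and Foxh1 was not called without embryo 2 (0.0578), embryo 5 (0.0583) or MUT embryo 8 (0.117), whereas Tdgf1 was called without MUT embryo 3 (0.0321) and by DESeq2 (0.0382). With the 2 WT embryos as the only controls, Gdf3 alone of the 5 was called (0.0485).

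**Figure D2:**
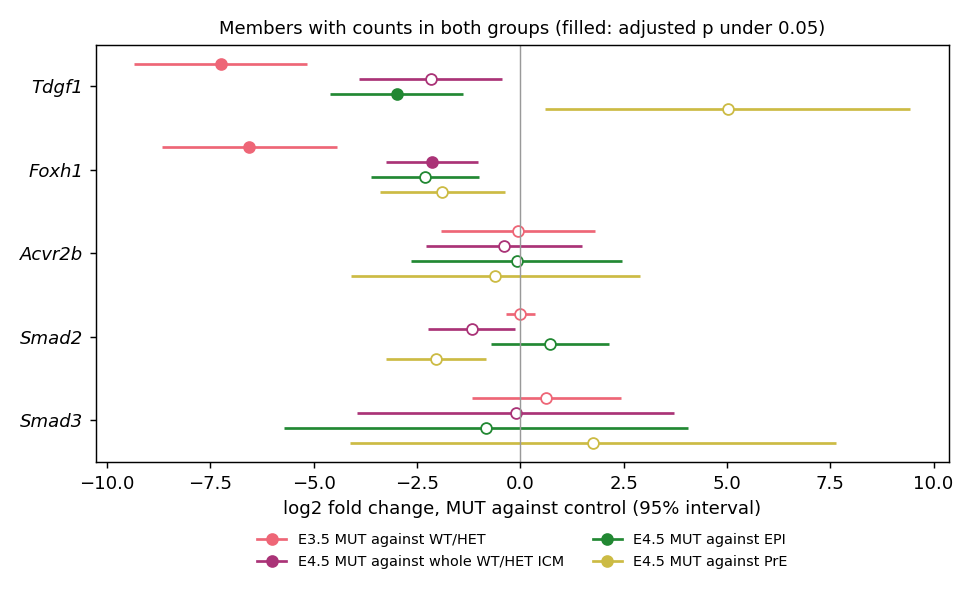
Log2 difference between MUT and control embryo sums in the tested comparisons for Tdgf1, Foxh1, Acvr2b, Smad2 and Smad3 (points with 95% intervals, filled points passed an adjusted p of 0.05). Tdgf1 and Foxh1 lie at -7.24 and -6.56 at E3.5 and at -2.17 and -2.14 against whole ICMs at E4.5, and Smad2 lies at 0.00 at E3.5.

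The receptors and SMADs again gave no call in whole ICMs. Smad2 was at 118, 57.5, 118 and 85.0 CPM in HET embryos 1, 2, 4 and 7 and 84.9 and 38.8 CPM in WT embryos 5 and 6, against 44.9 and 27.6 CPM in MUT embryos 3 and 8. MUT embryo 8 lies below all controls and MUT embryo 3 above 1 of them, and the difference was -1.18 with an interval of -2.23 to -0.13 (adjusted p = 0.177). Acvr2b was at 2.33 to 13.3 CPM in controls and 8.33 and 5.95 CPM in MUT, a difference of -0.40 with an interval of -2.29 to 1.5 (adjusted p = 0.843). Smad3 was at 0.317 to 11.3 CPM in controls and at 0 and 12.3 CPM in MUT embryos 3 and 8, so that the 2 MUT embryos lay at or beyond either end of the control range (difference -0.11, interval -3.94 to 3.72, adjusted p = 0.982). Acvr1b had 0 counts in both MUT embryos, but the controls were at 0.0879, 13.4, 0.408, 14.9, 0 and 4.41 CPM in embryos 1, 2, 4, 5, 6 and 7 (adjusted p = 0.196 in edgeR, 0.00806 in DESeq2). By the floor of 3 counts this type I receptor was at least 66.5-fold lower than in the pooled ICMs, but control embryo 6 also had 0 counts. The other adjusted p-values are from edgeR.

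In the main fit, with whole ICMs as the E4.5 controls, the size of the MUT change differed between the stages for Tdgf1 and Foxh1. Those ICMs include PrE cells, which had little Tdgf1 (pooled 3.05 CPM against 2117 CPM in EPI). The E4.5 difference of Tdgf1 was -2.17 against whole ICMs and -2.99 against EPI, so its size depends on the control chosen. For Foxh1 the E3.5 MUT value rested on 8 counts in 1 cell. The interaction of stage and genotype was 5.06 ± 1.10 on the log2 scale for Tdgf1, with an interval of 2.75 to 7.37 (adjusted p = 0.0106, edgeR), and 4.40 ± 0.94 for Foxh1, with an interval of 2.44 to 6.36 (adjusted p = 0.00902, edgeR). A positive value means that the deficit was smaller at E4.5. Of the members, 2 were above 0 and none was below 0 by this test, beside 2.71% and 2.75% of 16410 genes. Both calls were lost without E4.5 MUT embryo 3 (adjusted p = 0.188 and 0.0757, with interactions of 2.94 and 3.42), with WT controls only (0.111 and 0.121) and when every cell was weighted equally in limma (0.257 and 0.768), where Foxh1 had an interaction of 0.45. With 1 embryo left out the interaction ran from 2.94 to 5.88 for Tdgf1 and from 3.42 to 8.96 for Foxh1. For Smad2 the interaction was -1.20 with an interval of -2.10 to -0.30 (adjusted p = 0.113), for Acvr2b it was -0.36 and for Smad3 -0.78, none of them called. Without E4.5 embryo 6 the Smad2 interaction was called (-1.35, adjusted p = 0.0353, edgeR), and DESeq2 called that of Acvr1b (below 0, adjusted p = 0.0264). Pou5f1 differed in the opposite direction (adjusted p = 0.000545), with 2.76 to 5.99 CPM in E3.5 MUT embryos and none in E4.5 MUT embryos, a call lost in limma (0.782), where the value was 0.37. The interaction is not given for Nodal, Lefty1 and Lefty2, which were at or near 0 in both E3.5 groups.

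Tdgf1 in the E4.5 MUT embryos came from a part of the cells. It was detected in 12 of 19 MUT cells (63.2%, 95% Clopper-Pearson interval 38.4 to 83.7%), against 37 of 37 EPI cells, 10 of 29 PrE cells (34.5%) and, at E3.5, 43 of 58 WT/HET (74.1%) and 7 of 29 MUT cells (24.1%). The highest MUT cell held 2486 CPM and 3 cells held 76.1% of the MUT counts, whereas the median of the positive cells was 177 CPM in MUT and 1998 CPM in EPI. The highest MUT cell thus exceeded the EPI median, while the typical positive MUT cell lay well below it. In PrE only 1 of the 10 positive cells had 5 or more counts, so PrE was close to empty of this transcript. Foxh1 was detected in 10 of 19 MUT cells (52.6%), 36 of 37 EPI cells (97.3%) and 25 of 29 PrE cells (86.2%), and at E3.5 in 53 of 58 WT/HET cells (91.4%) but 1 of 29 MUT cells (3.45%). In the E4.5 MUT embryos 8 cells held both Tdgf1 and Foxh1, and 7 held Tdgf1 and Smad2. In a sum over an embryo, fewer expressing cells and less RNA per cell cannot be told apart, and cells of an embryo are not independent, so these shares are given as descriptions. The joint counts for PrE and MUT cells were chosen after values had been seen.

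**Figure D3:**
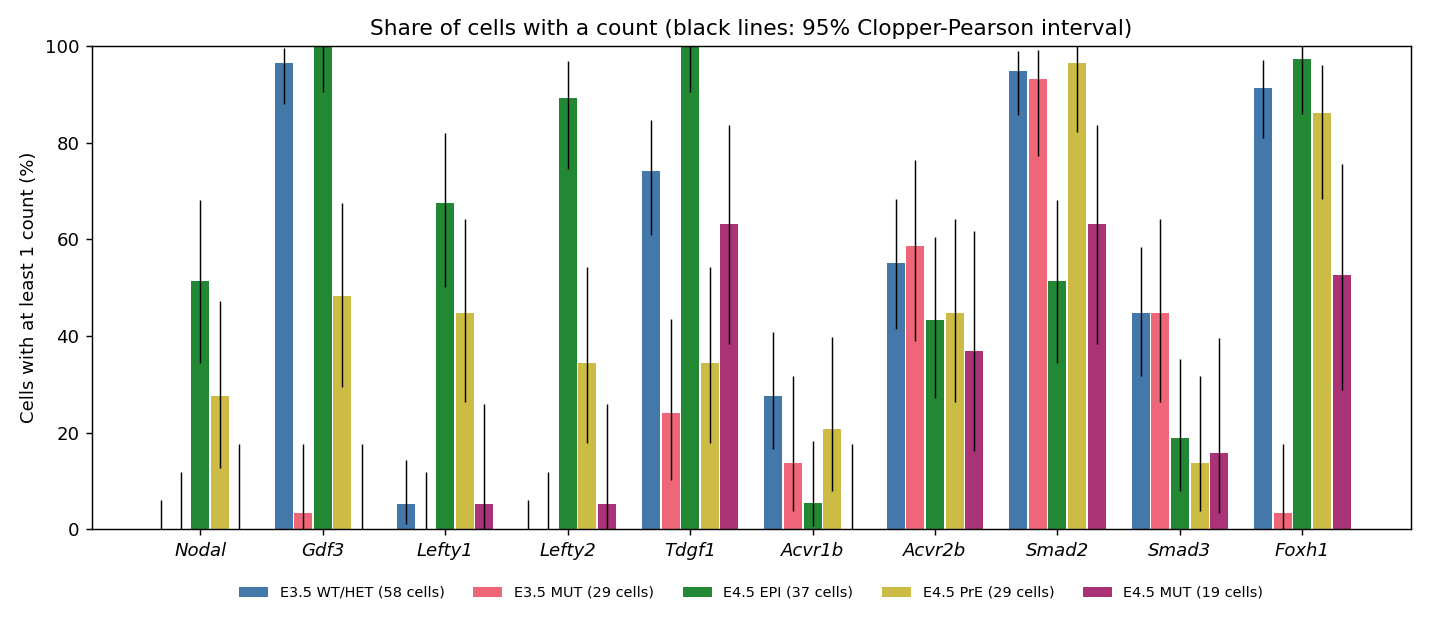
Percent of cells with at least 1 count of each member in the 5 classes of cells, with 95% Clopper-Pearson intervals as black lines (counting error only). Smad2 was detected in 94.8% of E3.5 WT/HET cells and 93.1% of E3.5 MUT cells, and Foxh1 in 91.4% and 3.45%.

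Gdf3 was found in nearly all E3.5 control and EPI cells and was all but absent from MUT cells. It was found in 56 of 58 E3.5 WT/HET cells (96.6%) and 37 of 37 EPI cells, in 14 of 29 PrE cells (48.3%), in 1 of 29 E3.5 MUT cells and in 0 of 19 E4.5 MUT cells, which by the same floor allows a share with a count of up to 15.8%. All 43 E3.5 WT/HET cells with Tdgf1 and all 53 with Foxh1 also held Gdf3. Nodal was found in 19 of 37 EPI cells (51.4%) and 8 of 29 PrE cells (27.6%) and in none of the 19 MUT cells. Lefty2 was found in 33 of 37 EPI cells (89.2%) and Lefty1 in 25 (67.6%), and each in 1 MUT cell with 1 count. Among EPI cells 17 of the 19 with Nodal also held Lefty2 and 12 held Lefty1, and 24 cells held both Lefty genes. Counting the 5 genes Nodal, Gdf3, Lefty1, Lefty2 and Tdgf1 together, 12 EPI cells held all 5, 17 held 4, 7 held 3 and 1 held 2. Of the 19 E4.5 MUT cells, 7 held none of them, 10 held 1 and 2 held 2. At E3.5, 42 of 58 WT/HET cells held 2 of them, while 21 of 29 MUT cells held none and 8 held 1. Of the receptors and SMADs at E3.5, Acvr2b was detected in 55.2% of WT/HET and 58.6% of MUT cells, Smad2 in 94.8% and 93.1% and Smad3 in 44.8% of both. Acvr1b was detected in 27.6% of WT/HET cells (11.1 to 50% in single embryos) and 13.8% of MUT cells (0 to 50% in single embryos).

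Between the control lineages at E4.5 the members fell into different patterns. EPI and PrE were assigned by the study from these same transcriptomes, so the values are descriptions without a test. Tdgf1 was at 884, 2460, 1949, 2489, 1647 and 1956 CPM in the EPI sums of embryos 1, 2, 4, 5, 6 and 7 and at 0.139, 0.309, 0.101, 0.304, 45.8 and 0.134 CPM in their PrE sums, the last but one from 2 PrE cells. Gdf3 was also higher in EPI in 6 of 6 embryos, at 141 to 326 CPM against 2.09 to 60.2 CPM. Smad2 had the opposite order in 6 of 6 embryos, at 21.5, 8.53, 29.8, 29.2, 31.3 and 14.8 CPM in EPI and 174, 86.0, 228, 176, 68.1 and 196 CPM in PrE, a mean log2 difference of -2.78 ± 0.90 (SD, n = 6). That difference was -4.55 when every cell was weighted equally. Tdgf1 and Smad2 were thus highest in different lineages. Smad3, a further transducer of the signal, was higher in EPI in 4 of 6 embryos, at 0 to 29.9 CPM against 0 to 10.1 CPM in PrE, with a mean log2 difference of 3.37 ± 4.05 (SD, n = 6). Foxh1 was near even, at 48.6 to 135 CPM in EPI and 28.1 to 116 CPM in PrE, with a mean log2 difference of 0.45 ± 0.66.

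Nodal and Lefty1 were split between the lineages in a way that changed from embryo to embryo. Nodal was at 62.8, 22.1, 43.7, 3.71, 30.2 and 29.6 CPM in the EPI sums of embryos 1, 2, 4, 5, 6 and 7 and at 0, 29.6, 0, 50.3, 7.75 and 0.134 CPM in the PrE sums, with PrE the higher in embryos 2 and 5. Lefty1 was at 110, 116, 53.6, 2.77, 7.04 and 27.3 CPM in EPI and at 5.72, 335, 0.303, 324, 32.3 and 189 CPM in PrE, with PrE the higher in embryos 2, 5, 6 and 7. The same 2 embryos with more Nodal in PrE also had the highest PrE Lefty1. Lefty2 kept to EPI in 5 of 6 embryos, at 291, 250, 429, 67.2, 405 and 318 CPM against 0, 11.1, 16.5, 88.2, 0.645 and 10.1 CPM, the exception being embryo 5. The mean log2 differences between EPI and PrE were 3.53 ± 5.04 for Nodal, -0.37 ± 5.00 for Lefty1 and 5.59 ± 3.93 for Lefty2 (SD, n = 6), so for Nodal and Lefty1 the spread between embryos exceeds the mean. A few cells carried much of the signal. The 3 highest PrE cells held 62.9% of PrE Lefty1 counts, with up to 1065 CPM in a cell, and the 3 highest EPI cells held 54.4% of EPI Nodal counts. Of the 8 PrE cells with Nodal, 6 also held Lefty1, 5 held Lefty2 and 1 held Gdf3.

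**Figure D4:**
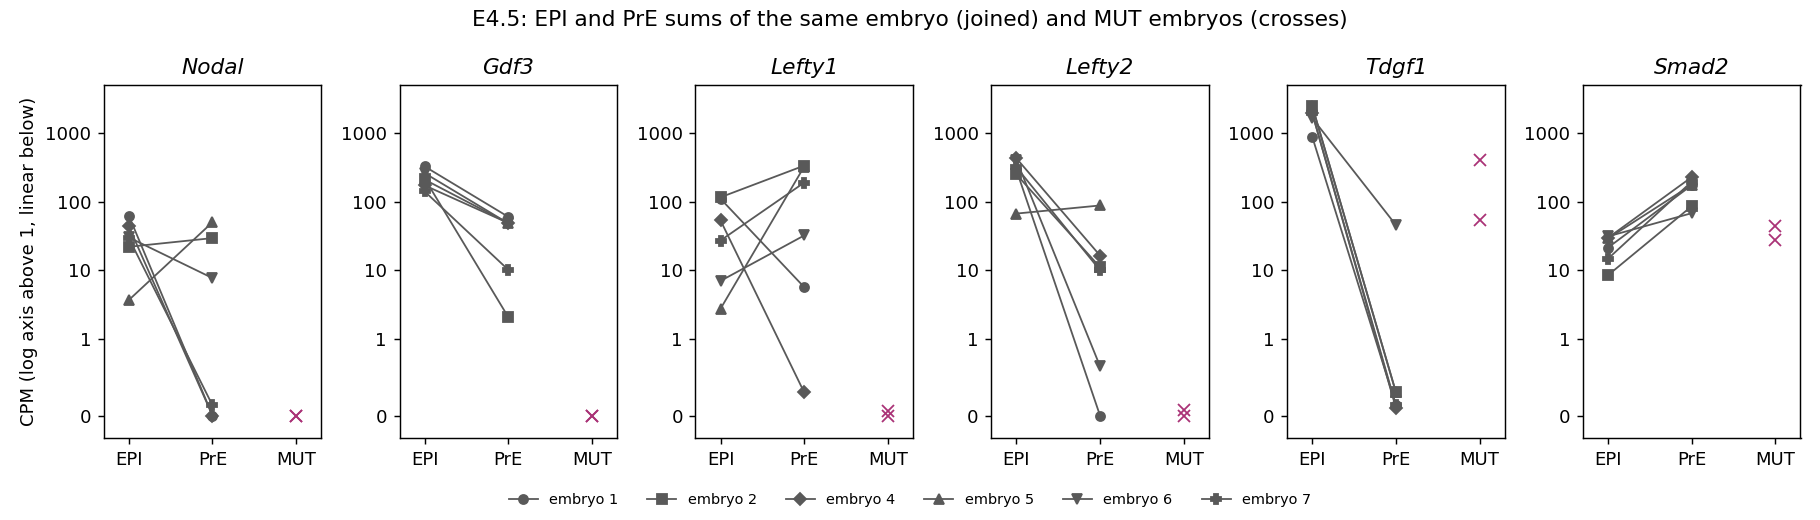
CPM of Nodal, Gdf3, Lefty1, Lefty2, Tdgf1 and Smad2 in the EPI and the PrE of each of 6 WT/HET embryos (sums), joined by a line for each embryo, beside the 2 E4.5 MUT embryos as crosses (log axis above 1 CPM, linear below). Tdgf1 and Gdf3 are higher in EPI in 6 of 6 embryos and Smad2 is higher in PrE in 6 of 6, whereas the lines of Nodal and Lefty1 cross.

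Set against EPI alone, E4.5 MUT embryos had lower Nodal (at least 283-fold, adjusted p = 0.0119), Gdf3 (at least 2163-fold, adjusted p = 6.85e-05), Lefty1 (1164-fold, counting interval 209 to 45978, adjusted p = 0.0328), Lefty2 (8863-fold, counting interval 1591 to 350096, adjusted p = 0.00051) and Tdgf1 (a fall of 2.99 ± 0.72 on the log2 scale, interval -4.60 to -1.39, adjusted p = 0.0449), by edgeR's quasi-likelihood test. These are 5 of the 9 members tested, none was called higher, and 2.62% of 12953 genes were called lower and 2.3% higher. The MUT embryos and the control embryos are the same as in the comparison with whole ICMs, so this is no separate evidence. The fold bounds again rest on the floor of 3 counts and cover counting error only. Gdf3 and Lefty2 were called whichever embryo was left out. Tdgf1 was called in 2 of 8 such fits, with adjusted p from 0.0725 to 0.0834 without embryo 2, 4, 5, 6 or 7 or MUT embryo 8. Nodal was lost without MUT embryo 3 (0.0815) or 8 (0.0627), and Lefty1 without embryo 2 (0.0533), 4 (0.0576) or 7 (0.0554) or MUT embryo 3 (0.182) or 8 (0.187). With EPI, PrE and MUT in a single fit, Nodal (0.10), Lefty1 (0.0726) and Tdgf1 (0.417) were not called and Foxh1 was (0.0476). With WT embryos as the only controls, Gdf3 alone was called (Nodal 0.149, Lefty1 0.166, Lefty2 0.0682, Tdgf1 0.173), and limma lost Nodal (0.0791). Foxh1 was at -2.30 ± 0.59 (adjusted p = 0.0553 in edgeR, 0.00108 in DESeq2, 0.00454 in limma). Smad2 was not called (0.72, interval -0.71 to 2.15, adjusted p = 0.622), and MUT embryos lay at 44.9 and 27.6 CPM against an EPI maximum of 31.3 CPM.

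Set against PrE alone, Gdf3 was the only member called (at least 324-fold lower by the floor of 3 counts, adjusted p = 0.0255, edgeR). Of 12246 genes, 2.07% were called lower and 1.74% higher. The call was lost without MUT embryo 3 (0.157), MUT embryo 8 (0.115) or embryo 4 (0.0542), without cells under 0.5 of the median depth of their stage (0.0967), with WT embryos as the only controls (0.157) and in limma (0.191). Tdgf1 was higher in both MUT embryos than in any PrE sum, with a difference of 5.02 ± 1.97 and an interval of 0.61 to 9.43 (adjusted p = 0.232). Without embryo 6, whose PrE sum has 2 cells, the adjusted p was 0.000567. Smad2 was lower in both MUT embryos than in any PrE sum, with a difference of -2.05 ± 0.54 and an interval of -3.25 to -0.84 (adjusted p = 0.0714, and 0.0306 without embryo 6, 0.00169 in DESeq2 and 0.00454 in limma). Lefty1 and Foxh1 were also lower in both MUT embryos than in any PrE sum (Lefty1 0 and 0.0574 against 0.303 to 335 CPM, Foxh1 8.92 and 26.2 against 28.1 to 116 CPM), without a call in edgeR (adjusted p = 0.0848 and 0.178). Lefty1 was called with no filter (0.045), without embryo 4 (0.0388) and by DESeq2 (8.93e-06), which also called Nodal (0.00849), Lefty2 (0.0015), Foxh1 (0.0389) and Acvr1b (0.0204). The sums of the MUT embryos thus had Tdgf1 between the levels of PrE and EPI sums, and Smad2 near or above the top of the EPI range and below PrE.

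Levels of different members can be set side by side only per length, as FPKM, here the counts scaled to the plain library total and divided by the summed exon length in kilobases (mean ± SD over embryos). The CPM values above carry TMM factors and the FPKM values do not. In EPI the order was Tdgf1 (762 ± 232), Lefty2 (119 ± 52.4), Gdf3 (96.9 ± 30.6), Foxh1 (68.5 ± 24.6), Lefty1 (31.9 ± 30.4) and Nodal (16.3 ± 10.4), followed by Smad2 (2.72 ± 1.12), Smad3 (2.15 ± 2.01) and Acvr2b (2.10 ± 1.13). Tdgf1 stands clear of the rest, while Lefty2, Gdf3 and Foxh1 lie within the spread of their neighbours, as do Smad2, Smad3 and Acvr2b. In PrE Lefty1 came first (85.0 ± 89.0), then Foxh1 (49.9 ± 21.8), Smad2 (18 ± 7.33) and Gdf3 (15.6 ± 10.2), and the spread of Lefty1 covers them all. In E3.5 WT/HET embryos the order was Tdgf1 (54.5 ± 42.3), Gdf3 (33.5 ± 7.88), Foxh1 (13.9 ± 5.29) and Smad2 (6.40 ± 0.69), and the spread of Tdgf1 covers Gdf3 and Foxh1. In E4.5 MUT embryos Tdgf1 (90.8 ± 98.6) and Foxh1 (13.2 ± 9.13) were the highest members, above Smad2 (4.24 ± 1.41).

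Few other genes of the pathway were called, in numbers close to the share over all tested genes, so the counts are not read as a result about the pathway. A list of 57 other genes of the TGF-beta and BMP pathways held 34 tested genes at E3.5, of which 1 was called higher and 2 lower (beside 3.2% and 2.98% of all tested genes), with a median log2 difference of -0.32 against -0.02 over all tested genes. Bambi, a decoy receptor, fell by 2.41 ± 0.45 on the log2 scale (48.2 to 120 CPM in WT/HET, 4.58 to 28.2 CPM in MUT, adjusted p = 0.00865, edgeR). Tgif2, a repressor that binds SMADs, fell by 1.91 ± 0.51 (adjusted p = 0.0459, edgeR) but was called in only 1 of 11 fits with an embryo left out, where the adjusted p otherwise reached 0.0608 to 0.0948. Fstl3, a secreted antagonist of activin, rose by 1.87 ± 0.38 (16 to 44.8 CPM in WT/HET, 50.2 to 197 CPM in MUT, adjusted p = 0.0136, edgeR), a call lost with WT embryos as the only controls (0.0519). In whole ICMs at E4.5, 2 of 47 tested genes were called higher and 2 lower (beside 3.1% and 4.27%), with a median of -0.06 against -0.10. Of the BMP branch, Id3 fell by 3.27 ± 0.57 (91.5 to 226 CPM in ICMs, 24.1 and 7.67 CPM in MUT, adjusted p = 0.00965, edgeR), Smad1 was at 6.12 to 14.2 CPM in ICMs and 0 counts in MUT (adjusted p = 0.00762) and Id2, which is also active in trophectoderm, rose by 3.05 ± 0.60 (10.1 to 67.3 CPM in ICMs, 253 and 331 CPM in MUT, adjusted p = 0.0157, and 0.0849 without MUT embryo 3). Nedd4l, a ubiquitin ligase, rose by 1.94 ± 0.47 (adjusted p = 0.0352), a call lost in 5 of 8 fits with an embryo left out (0.0593 to 0.175) and in limma (0.0813). With WT embryos as the only controls none of these 4 genes was called (0.147 to 0.169).

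Against EPI, 1 of 39 tested list genes was called higher and 1 lower (beside 2.3% and 2.62%), with a median of -0.50 against -0.03. Id3 fell by 4.03 ± 0.68 (adjusted p = 0.0103, and 0.0701 without MUT embryo 8). Eomes, a T-box factor that is also active in trophectoderm, rose by 3.00 ± 0.60 (5.55 to 19.1 CPM in EPI, 67.2 and 89.2 CPM in MUT, adjusted p = 0.0221), a call lost without either MUT embryo (0.207 and 0.0967). Neither was called with WT embryos as the only controls (Id3 0.142, Eomes 0.125), nor Id3 with EPI, PrE and MUT in a single fit (0.0684). Against PrE, Smad1 alone of 41 was called (lower, beside 2.07% of all genes, adjusted p = 0.0134, lost without either MUT embryo at 0.0933 and 0.0688, with WT controls only at 0.175 and in the single fit at 0.0954), with a median of -0.10 against 0.05. For the interaction of stage and genotype, 2 of 49 list genes were above 0 and 2 below (beside 2.71% and 2.75%), with a median of -0.20 against -0.08. Ppm1a, a phosphatase that acts on SMADs, had an interaction of 2.12 ± 0.48 (adjusted p = 0.0126, and 0.0913 without E4.5 MUT embryo 8), and Nedd4l one of 1.79 ± 0.45 (adjusted p = 0.0256, lost without either E4.5 MUT embryo at 0.114 and 0.0503). Trim33 had one of -1.62 ± 0.42 (adjusted p = 0.0299, lost without E3.5 MUT embryo 17 at 0.0651 or E4.5 MUT embryo 3 at 0.193). All 3 were lost in limma (0.0898 to 0.177), and Nedd4l and Trim33 with WT embryos as the only controls (0.0527 and 0.124). Id1 was called at 0.0474 but rested on E3.5 values of 0 to 2.07 CPM and was called in 4 of 19 fits with an embryo left out. All of these p-values are from edgeR. The other type II receptor Acvr2a, at 15.0 to 40.5 CPM in E3.5 WT/HET and 24.3 to 61.5 CPM in MUT, and the common partner Smad4, at 3.41 to 32.6 CPM and 12 to 40.9 CPM, were not called in any comparison. The secreted inhibitor Cer1 and the ligands Gdf1 and Inhba had 0 counts in every embryo. Some other ligands of the list were detected at E3.5, at up to 4.82 CPM in a WT/HET embryo and 5.84 CPM in a MUT embryo.

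Across the 25 sums (11 E3.5 embryos, 6 EPI, 6 PrE and 2 E4.5 MUT) the genes with the pattern most like each member were sought among 9381 genes with a mean of at least 5 CPM, by Pearson correlation of log2 CPM. EPI and PrE of a given embryo both enter, and stage coincides with plate, so the coefficients are descriptions. Gdf3 was followed most closely by Platr10 (0.92), Pou5f1 itself (0.89) and Zscan10 (0.89), and Tdgf1 by Fgf4, an epiblast growth factor (0.87), Tet1 (0.85) and Ncoa1 (0.85). Nodal was followed by Rmdn2 (0.91), Taf8 (0.86) and Sumo3 (0.85), Lefty2 by 1700057H21Rik (0.95), Gng3 (0.92) and Sumo3 (0.91), and Lefty1 by Epha2 (0.87), Jpt1 (0.86) and Fam25c (0.83). Among the members, Nodal correlated with Lefty2 at 0.89 and with Lefty1 at 0.83, but with Gdf3 at 0.44 and with Tdgf1 at 0.37.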

How the data were processed

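Single ICM cells were sequenced with Smart-seq2 in 125-bp read pairs without molecular identifiers. The authors aligned reads to GRCm38/mm10 with STAR and deposited raw counts of read pairs per Ensembl 87 gene from HTSeq, 1 table for each of 172 cells, not normalized. Over all cells 32.3% of pairs aligned to several places, 8.65% fell in more than 1 gene and 4.72% in none, and these stayed out of library sizes. Genotype, stage and lineage came from the labels, and embryo and plate numbers from the study's table of cells by title. From the counts, sums per embryo were made and tested with edgeR 4.0.16 (R 4.3.3) by the quasi-likelihood F test after TMM normalization and filterByExpr. P-values were adjusted by Benjamini-Hochberg over all tested genes, and called means an adjusted p under 0.05. A prior count of 2 was used for log2 CPM within embryos and for correlations. FPKM used summed exon lengths. scde, which treats cells as replicates, was not used. The fits were tested on simulated counts. Alternatives were DESeq2 1.42.0, its size factors in edgeR, no filter, limma 3.58.1 on mean log2(CPM + 1) of cells, omission of 9 cells under 0.5 of the median depth of their stage, WT controls only, EPI, PrE and MUT in a single fit, each embryo left out, and, for shares, 5 counts, 1 CPM or thinned cells. By the rule, named genes were the 10 members, Pou5f1, up to 3 called list genes per direction and comparison, and the 3 genes most correlated with each ligand, Lefty gene and Tdgf1, and the other pathway genes and markers named were chosen after their values were seen. The members, the pathway and marker lists and the tests were chosen with earlier results of these data known. Intervals of shares and ratios, and the fold bounds from the floor of 3 counts, cover counting error only. A gene of the pathway list and a sequence are not reported here.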

Additional observations from a re-analysis of the deposited data

Results flagged for a closer look

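Within groups of 4 to 10 embryo sums, a value was singled out where its gap to the nearest other embryo was large for the range of the group by Dixon's criterion. This concerned 9 of 45 groups. The criterion's rate of about 1 in 20 holds for independent groups of normally distributed values. Several groups here are mostly 0, and the whole ICM groups reuse the EPI and PrE counts, so no excess over that rate is read. Among E3.5 WT/HET embryos Gdf3 was high in embryo 11 at 131 CPM and Smad2 low in embryo 9 at 48.0 CPM. Among E3.5 MUT embryos Gdf3 was found in embryo 10 alone at 0.146 CPM, Foxh1 in embryo 17 alone at 0.690 CPM, and Acvr1b was high in embryo 19 at 4.86 CPM. Among PrE sums Lefty2 was high in embryo 5 at 88.2 CPM, Tdgf1 in embryo 6 at 45.8 CPM and Smad3 in embryo 2 at 10.1 CPM. Among EPI sums Acvr1b was found in embryo 7 alone at 7.20 CPM. In groups that are otherwise at or near 0, a single positive embryo meets this criterion.

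In the main fit, with whole ICMs as the E4.5 controls, the MUT change differed between E3.5 and E4.5 for Tdgf1 and Foxh1. The interaction on the log2 scale was 5.06 for Tdgf1 (adjusted p = 0.0106, edgeR) and 4.40 for Foxh1 (adjusted p = 0.00902, edgeR). Both calls were lost without E4.5 MUT embryo 3 (0.188 and 0.0757), with WT controls only (0.111 and 0.121) and in limma (0.257 and 0.768). For Tdgf1 4 of 4 E3.5 MUT embryos lay below all E3.5 controls, and 1 of 2 E4.5 MUT embryos lay below all whole ICMs. For Foxh1 both MUT groups lay below all of their controls.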

How the results depend on the processing

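No paired analysis was possible because the numbers shared by the labels of different groups count cells, and MUT and control embryos are different animals. EPI and PrE sums share embryos but were not tested against each other, and the single fit with EPI, PrE and MUT entered them as if independent. Low counts gave wide intervals for the receptors and Smad3, and every E4.5 test had 2 MUT embryos. Where leaving out an embryo left 1 MUT embryo, that embryo was assumed to vary like the controls. Among single genes, 568 fits with an embryo left out kept direction and call, 64 lost a call, 5 gained one and 21 turned sign, and under the other alternatives the numbers were 319, 43, 14 and 14. The median log2 change over all tested genes was -0.02 at E3.5 and -0.10, -0.03 and 0.05 at E4.5 against ICM, EPI and PrE, and reached -0.23 (E3.5) and -0.24 (PrE) with limma and -0.36 (ICM) with no filter.

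Genes called at E3.5 numbered 746, and 1607 with DESeq2, 1353 with limma and 435 with WT controls only (482 to 882 with an embryo left out). Against whole ICMs they numbered 1039, and 2407, 1770 and 25 (524 to 1061). Against EPI they numbered 637, and 1711, 1479 and 48 (226 to 774). Against PrE they numbered 466, and 1223, 1097 and 27 (169 to 534). For the interaction they numbered 896, and 1850, 1445 and 470 (562 to 1015). Members called lower against whole ICMs went from 5 to 1 with WT controls only. Against EPI they went from 5 to 1 with WT controls only and to 3 with EPI, PrE and MUT in a single fit. Against PrE they went from 1 to 7 with DESeq2, 2 with no filter, and 0 without shallow cells or with WT controls only. For the interaction, members above 0 went from 2 to 0 with limma or WT controls only, and members below 0 from 0 to 3 with DESeq2 or limma. With an embryo left out, members called lower numbered 3 at E3.5, 3 to 5 against whole ICMs, 2 to 5 against EPI and 0 to 2 against PrE, where 0 to 1 were called higher, and interactions numbered 0 to 2 above 0 and 0 to 1 below.

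Signs of members that were not called, and of the called Pou5f1 interaction, turned in some settings, and the cause was not tested. For Smad2 at E3.5 the log2 difference was -0.0050 with DESeq2, -0.0068 with its size factors, -0.0021 with no filter, -0.092 with limma and -0.041 without shallow cells. Smad3 was at -0.11 (E3.5) and 0.16 (ICM) with limma. Acvr2b was at 0.18 (ICM), 0.026 (EPI), 0.73 (PrE) and 0.39 (interaction) with WT controls only. The limma interaction was 0.51 for Gdf3, 0.27 for Smad3 and 0.37 for Pou5f1, on a scale with 1 CPM added on which genes at 0 change less. With an embryo left out, the log2 difference at E3.5 ran from -3.20 to 0.048 for Acvr1b, -0.66 to 0.33 for Acvr2b and -0.046 to 0.11 for Smad2. At E4.5 it ran from -0.34 to 0.20 for Acvr2b against EPI, and for Smad3 from -10.02 to 0.88 against whole ICMs, -10.05 to 0.17 against EPI and -7.18 to 2.82 against PrE. The interaction ran from -0.75 to 0.26 for Acvr2b and from -10.23 to 0.22 for Smad3. The lowest Smad3 values come from fits with MUT embryo 3 alone, which has 0 counts, so their size depends on the prior count.

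The share of PrE cells with Tdgf1 was 3.45% from 5 counts or from 1 CPM against 34.5% from 1 count, and the other shares that moved by more than the spread between embryos were Gdf3 in EPI (97.3%), Smad2 in E4.5 MUT (57.9%) and Pou5f1 in E3.5 MUT (34.5%).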
